A study of Mus musculus with 6 samples.

Results

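The 10 genes described here encode proteins that cells make quickly after a growth factor or stress signal, together with proteins that switch the same signal off. They were taken by symbol from a table of 16982 genes, and all 10 were found: the immediate early genes Egr1, Egr2, Ier2 and Ier3, the MAP kinase phosphatase genes Dusp1, Dusp4 and Dusp6, and the Sprouty and SPRED genes Spry2, Spry4 and Spred1. The samples were mouse embryonic fibroblasts (MEF) of C57BL/6 background that had been infected with retroviruses carrying OCT4, SOX2, KLF4 and C-MYC and were harvested at day 3, before they could become induced pluripotent cells. The 3 WT libraries came from cells with intact Rnf20. The 3 knockout libraries came from cells in which loxP-flanked alleles (Rnf20 Flox/Flox) had been deleted by a ubiquitously expressed, tamoxifen-inducible Cre recombinase (Tamoxifen-cre) after addition of 4-OH tamoxifen to the medium. RNF20 is the ligase that, with RNF40, attaches ubiquitin to histone H2B on transcribed genes. The labels list all 6 cultures as untreated, and whether WT cells received the drug, or carried the Cre, is not stated. Nor do the labels say that libraries of a genotype came from separate embryos, so the p-values measure only the spread between these samples.

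When a growth factor binds its receptor, RAS activates the kinases RAF, MEK and ERK, and ERK switches on immediate early genes without any need for new protein synthesis. Some of the products pass the signal on: EGR proteins are zinc-finger transcription factors. Others end it: DUSP proteins remove phosphate from MAP kinases, whereas Sprouty and SPRED proteins block the path between the receptor and RAF, so that the level of these feedback transcripts is often read as a trace of past ERK activity in fibroblasts.

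Rnf20 knockout cells held more mRNA of the phosphatases and less of Egr1. Dusp1 was 3.08-fold and Dusp6 1.73-fold higher than in WT cells, Dusp4 was 2.48-fold higher, and Egr1 was 1.81-fold lower, so that Egr1 mRNA outnumbered Dusp1 mRNA per length in every WT library and the reverse held in every knockout library. Counts were compared between genotypes with edgeR's quasi-likelihood test over the 13386 genes with enough counts, and genes with an adjusted p (Benjamini-Hochberg) under 0.05 were called. By that rule 6 of the 10 genes rose (Dusp1, Dusp6, Dusp4, Ier3, Spred1 and Spry4), 1 fell (Egr1) and 3 were not called (Ier2, Egr2 and Spry2). Among all genes tested 16.4% were called higher and 16.6% lower, 33% in all. By normalized counts, the libraries of 7 of the 10 genes did not overlap between genotypes (6 higher, 1 lower), as was the case for 54.8% of all genes. With the stricter thresholds of the study's methods (adjusted p under 0.01, a log2 fold change beyond 1 and a mean FPKM over 1), 1 of the 10 genes, Dusp1, was called higher and 0 lower, against 1.5% and 2.08% of all genes. Under those thresholds 0 is a count of edgeR's quasi-likelihood test, which gave 2 genes lower at an unadjusted p under 0.05, and DESeq2 called 1 lower at an adjusted p under 0.05.

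The libraries held 20545442 to 21746898 counts each, and a gene with 3 counts would lie at 0.142 to 0.143 CPM (counts scaled to library size by the TMM method), far under all 10 genes. Rnf20 itself, the check of the labels, stood at 107, 107 and 106 CPM in the WT libraries and at 18.7, 18.5 and 16.4 CPM in the knockout libraries (log2 fold change -2.57, SE 0.0812, adjusted p = 0.000163). Knockout replicate 3 stood apart: its counts differed from those of the other 2 knockout libraries by a chi-square of 92.4 and 101 per gene, against 8.57 between knockout replicates 1 and 2 and 6.04 to 8.92 between WT libraries. Transcripts of 4 Y-linked genes gave 4774 to 5092 counts in the WT libraries and 5608 in knockout replicate 2, but 0 and 1 in knockout replicates 1 and 3, so embryo sex and genotype are partly confounded. The 10 fibroblast markers summed to 27077 to 29465 CPM in WT libraries and to 17919 CPM in knockout replicate 3, below the 26813 and 33196 CPM of the other knockout libraries, and none of the 10 was at 0 in any library. Most of that sum is collagen mRNA, and 3 of the 10 markers fell in knockout cells: Thy1 (log2 fold change -1.11, adjusted p = 0.00251), Fap (-1.22, adjusted p = 0.00374) and Pdgfra (-1.22, adjusted p = 0.0185), each of them below all WT libraries in every knockout library. Of all genes, 16.6% were called lower, and 28.2% had every knockout library below all WT libraries. The other 7 fibroblast markers were not called. On the log2 scale Col1a2 (-0.41) and Col3a1 (-0.31) lay below 0. Col1a1 (0.02), Prrx1 (0.05), Pdgfrb (0.09), Vim (0.29) and Twist2 (0.50) lay above 0. Among the 7, Vim was higher in every knockout library, at 3654, 3448 and 3614 CPM against 3058, 2655 and 3055 CPM in WT. Its log2 fold change was 0.29 (adjusted p = 0.0577 from edgeR), and 0.28 without knockout replicate 3 (adjusted p = 0.0115). In RNA of whole cultures, fewer cells that express a gene and less RNA of it per cell cannot be told apart.

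**Figure D1:**
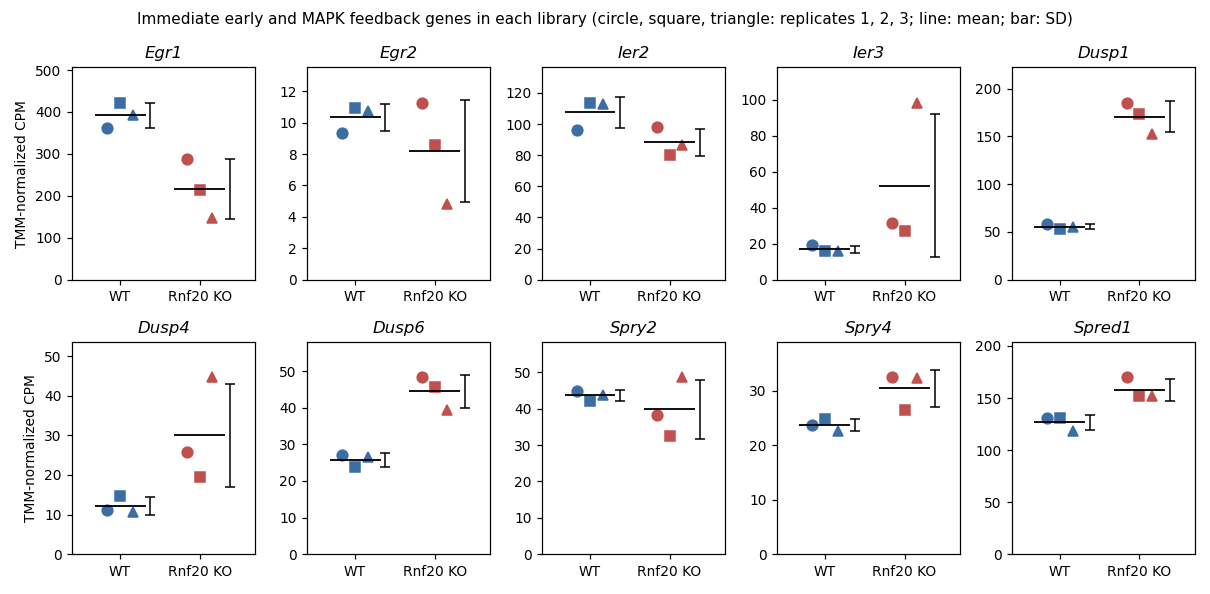
TMM-normalized CPM of each gene in the 3 WT (blue) and 3 Rnf20 knockout (red) libraries. Circles, squares and triangles are replicates 1, 2 and 3, horizontal lines are means and bars are SD. The groups separate for Egr1, Ier3, Dusp1, Dusp4, Dusp6, Spry4 and Spred1 and overlap for Egr2, Ier2 and Spry2, and the triangle of the knockout is far above the other points for Ier3.

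Most of the 10 are compact genes. In GENCODE annotation of GRCm38 their principal transcripts span a median of 4597 bases of genome, against 23076 bases for 13043 protein-coding genes tested, and hold a median of 2 exons against 9. Of the 10 genes 7 (70%) have no more than 3 exons, against 13.9% of those coding genes. Ier2 (chr8:84661331-84662852, minus strand) is a single exon, Ier3 (chr17:35821684-35822923, plus) and Egr1 have 2, and Spred1 (chr2:117121374-117182279, plus), the longest, has 7. Between them in length lie Dusp6 (chr10:99263231-99267489, plus), Spry2 (chr14:105891947-105896819, minus), Egr2 (chr10:67535475-67542188, plus) and Dusp4 (chr8:34807297-34819894, plus). No exon of the 10 genes overlaps an exon of another gene in that annotation.

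RefSeq promoter windows, from 250 bases before the start of a gene, were searched for 6 of the 10 (Egr2, Ier3, Dusp1, Dusp6, Spry2 and Spred1). None was at hand for Ier2 and Dusp4, and Egr1 and Spry4 were left out of the search. Windows of 4 genes are shown, of 3 whose mRNA rose in knockout cells (Dusp1, Dusp6 and Ier3) and of Egr2, which was not called. They are given 5′ to 3′ on the gene's own strand in build GRCm38.p6, without bases that fall in an annotated exon: Dusp1 chr17:26508520-26508722 (minus), Dusp6 chr10:99262981-99263230 (plus), Ier3 chr17:35821463-35821683 (plus) and Egr2 chr10:67537619-67537868 (plus). Capitals mark the CArG box bound by serum response factor, the cAMP response element TGACGTCA, and its shorter form TGACG, on either strand.
Dusp1: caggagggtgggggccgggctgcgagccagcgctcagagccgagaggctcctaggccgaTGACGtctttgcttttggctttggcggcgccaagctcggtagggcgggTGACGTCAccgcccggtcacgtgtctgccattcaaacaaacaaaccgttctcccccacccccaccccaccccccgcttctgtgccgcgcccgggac
Dusp6: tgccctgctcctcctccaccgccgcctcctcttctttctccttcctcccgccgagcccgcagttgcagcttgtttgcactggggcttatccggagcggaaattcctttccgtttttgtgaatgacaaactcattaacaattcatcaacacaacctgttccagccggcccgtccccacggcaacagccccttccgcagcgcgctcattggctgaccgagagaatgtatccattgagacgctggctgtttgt
Ier3: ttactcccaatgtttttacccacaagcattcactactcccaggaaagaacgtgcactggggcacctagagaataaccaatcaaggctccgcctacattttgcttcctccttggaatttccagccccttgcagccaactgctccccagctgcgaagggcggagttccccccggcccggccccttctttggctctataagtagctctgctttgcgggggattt
Egr2: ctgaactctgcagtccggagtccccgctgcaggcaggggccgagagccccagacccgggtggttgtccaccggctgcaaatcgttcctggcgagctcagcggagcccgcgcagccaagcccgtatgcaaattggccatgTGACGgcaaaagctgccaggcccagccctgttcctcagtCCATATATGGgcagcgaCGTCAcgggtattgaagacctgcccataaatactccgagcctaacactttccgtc

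Within 250 bases before the start, the full cAMP response element was found in 1 of the 6 genes, Dusp1, where it lies 143 to 136 bases before the start, and in 1.55% of 32851 mouse promoter windows of that length. Among the 6 genes searched, which do not include Egr1, a CArG box was found for Egr2 alone. The CArG box printed above lies 72 to 63 bases before the start shown. Another, with other letters, lies 72 to 63 bases before a different start of Egr2. A CArG box was held by 1.47% of windows. For the 6 genes 10 windows were searched, since Egr2 has several starts, so Egr2 had more chances of a match than a single window. TGACG, which is also contained in the full element, was found for Dusp1 and Egr2 and in 17.8% of windows. The AP-1 element TGANTCA (6.75% of windows), the EGR element GCGNGGGCG (4.7%) and the TATA box TATAAA (12.4%) were found in 0 of the 6, the ETS core CCGGAA in 1 (Egr2, from another of its starts, 12% of windows) and the GC box GGGCGG in 4 (32.7% of windows). Both strands were searched, and a match describes letters only.

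Of the EGR transcription factors, Egr1 fell. Egr1 (chr18:34859823-34864984, plus strand of GRCm38) was measured at 361, 422 and 393 CPM in the WT libraries and at 288, 215 and 146 CPM in knockout replicates 1 to 3. Every knockout library lay below every WT library, an order that 28.2% of all genes showed, and knockout replicate 3 was the lowest. The log2 fold change was -0.86 (SE 0.230, 95% confidence interval -1.40 to -0.31, adjusted p = 0.0311 from edgeR). Egr2, a zinc-finger factor best known from hindbrain and Schwann cells, stood at 9.37, 10.96 and 10.7 CPM in WT and 11.3, 8.59 and 4.81 CPM in knockout libraries. Knockout replicate 1 was above all WT libraries and replicate 3 below them, and the log2 fold change of -0.33 (SE 0.291, interval -1.02 to 0.36, adjusted p = 0.405) was within this spread, and without knockout replicate 3 it was -0.06 (adjusted p = 0.772). The call of Egr1 was lost without WT replicate 1, 2 or 3 or knockout replicate 2 (adjusted p = 0.0753, 0.103, 0.0971 and 0.0740), and leaving out knockout replicate 3 gave -0.64 on the log2 scale (adjusted p = 0.00102).

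Of the IER genes, Ier3 rose and Ier2 was not called. Ier3, a small membrane-associated protein linked to survival signalling and itself a substrate of ERK, was found at 19.2, 15.9 and 15.7 CPM in WT libraries and at 31.6, 26.9 and 98.3 CPM in knockout replicates 1, 2 and 3. All knockout libraries were above all WT libraries, as for 26.6% of all genes, but replicate 3 lay far above the other 2. The log2 fold change was 1.63 (SE 0.495, interval 0.45 to 2.80, adjusted p = 0.0451 from edgeR), and it was 0.79 (adjusted p = 0.000309) without knockout replicate 3. Without WT replicate 1, 2 or 3 the call was lost (adjusted p = 0.111, 0.139 and 0.143). Ier2, a nuclear protein of the same immediate early class, stood at 96.0, 114 and 113 CPM in WT and 97.9, 80.3 and 86.4 CPM in knockout libraries. Knockout replicate 1 was slightly above WT replicate 1, while the other 2 knockout libraries were lower than all WT libraries. Its log2 fold change of -0.29 (SE 0.106, interval -0.54 to -0.03) did not pass (adjusted p = 0.0800), except without knockout replicate 3 (-0.27, adjusted p = 0.0419).

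The 6 macrophage markers summed to 221 CPM in knockout replicate 3, against 42.2 to 87.5 CPM in WT and 43.4 and 71.4 CPM in the other knockout libraries. Most of the sum was Lyz2 (159 CPM) and Adgre1 (31.9 CPM), and Csf1r (12.2 CPM), Ptprc (4.91 CPM) and Tyrobp (4.67 CPM) were likewise above every other library there, but Cd68 was not. The 4 epithelial markers summed to 3.14 CPM in that library, against 41.2 to 42.9 CPM in WT and 23.3 and 33.3 CPM in the other knockout libraries. The endothelial markers Pecam1 and Cdh5 and the muscle markers Myod1 and Myog were too low to be tested. The sums of those lists were 48.3 to 59.0 CPM in WT and 32.3 to 66.9 CPM in knockout libraries for 4 endothelial genes, and 7.08 to 8.87 and 4.29 to 12.5 CPM for 3 muscle genes. The 2 neural markers found, nearly all Map2, summed to 33.3 to 35.5 CPM in WT and 12.5 to 24.6 CPM in knockout libraries. The part of these cells in the high Ier3 and Dusp4 and low Egr1 and Egr2 of knockout replicate 3 was not tested, and the values without that library stand beside each gene.

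All 3 dual-specificity phosphatase genes rose. DUSP1 and DUSP4 act in the nucleus on ERK, JNK and p38, and DUSP6 acts in the cytoplasm mainly on ERK. Dusp1 was measured at 58.1, 52.6 and 55.4 CPM in WT and at 185, 173 and 153 CPM in knockout libraries. The lowest knockout library was thus far above the highest WT library, and replicates lay close together in both genotypes. The log2 fold change was 1.62 (SE 0.0931, interval 1.40 to 1.84, adjusted p = 0.00144 from edgeR). It is the gene whose promoter holds the full cAMP response element printed above, and any part of that element in the rise was not tested. Dusp6 stood at 27.2, 23.7 and 26.5 CPM in WT and 48.3, 45.7 and 39.5 CPM in knockout libraries. The groups were again well apart, with knockout replicate 3 the lowest of its group for both genes. For Dusp6 the log2 fold change was 0.79 (SE 0.105, interval 0.54 to 1.04, adjusted p = 0.00486).

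Dusp4 was less even, at 11.03, 14.8 and 10.5 CPM in WT and 25.7, 19.6 and 44.7 CPM in knockout libraries. The groups did not overlap, but knockout replicate 3 was again far above the rest. Its log2 fold change was 1.31 (SE 0.315, interval 0.56 to 2.06, adjusted p = 0.0226 from edgeR) and 0.90 (adjusted p = 0.00110) without that library. Without WT replicate 1, 2 or 3 the call was lost (adjusted p = 0.0842, 0.0590 and 0.0929). Dusp1 and Dusp6 passed with any 1 of the 6 libraries left out, with log2 fold changes of 1.56 to 1.7 and of 0.73 to 0.87. With a term for Y-linked transcripts beside the genotype, the genotype value rests on knockout replicate 2 alone against WT. The other knockout libraries held nearly no such transcripts. In that fit the log2 fold changes were 1.64 for Dusp1, 0.82 for Dusp6, 0.69 for Dusp4 and 0.67 for Ier3. Egr1 was at -0.87, Spry4 at 0.16 and Spred1 at 0.26. Since 1 knockout library carries these values, no p-value is given for them.

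The Sprouty and SPRED genes, whose products dampen RAS and RAF activation, differed by small amounts. Spred1 was found at 131, 131 and 118 CPM in WT and 169.9, 152 and 152 CPM in knockout libraries, and rose by 0.31 on the log2 scale (SE 0.0808, interval 0.12 to 0.51, adjusted p = 0.0274 from edgeR). Spry4 (chr18:38586247-38601415, minus strand) stood at 23.6, 24.8 and 22.5 CPM in WT and 32.5, 26.5 and 32.4 CPM in knockout libraries, and rose by 0.36 (SE 0.107, interval 0.11 to 0.62, adjusted p = 0.0407). For both genes the CPM of the knockout libraries lay above all WT libraries by a small margin. In the deposited FPKM, Spred1 overlapped, at 35.9, 36.7 and 30.3 in WT and 48.3, 42.1 and 35.5 in knockout libraries. It was not called by limma on log2(FPKM + 1) (adjusted p = 0.148). Spry2 was measured at 45.0, 42.1 and 43.8 CPM in WT and 38.3, 32.6 and 48.7 CPM in knockout libraries. Knockout replicates 1 and 2 were below all WT libraries and replicate 3 above them, and the log2 fold change of -0.13 (SE 0.146, interval -0.48 to 0.21, adjusted p = 0.509) did not pass, with an interval that spans both directions. Without knockout replicate 3, Spry2 was lower in knockout cells (-0.30, adjusted p = 0.0124). Scaled by library size only, Spred1 and Spry4 were at 0.25 and 0.30 and did not pass (adjusted p = 0.0572 and 0.0754). Spry4 also lost its call without any 1 WT library (adjusted p = 0.0931 to 0.140) or knockout replicate 1 (0.1), and Spred1 without any 1 WT library (0.0778 to 0.108) or knockout replicate 1 or 2 (0.0697 and 0.0509).

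Compared per length, in the deposited FPKM (fragments per kilobase of transcript, scaled to library depth), Egr1 had the highest mean of the 10 mRNAs in WT cells and Dusp1 in knockout cells, although in knockout replicate 3 Ier3 (131 FPKM) was above Dusp1 (86.8 FPKM). Mean WT levels were 128 ± 11.04 FPKM for Egr1 and 84.6 ± 10.5 for Ier2 (SD, n = 3), which placed them at the 95.5th and 92.7th percentile of the 12633 genes with an FPKM. Then came Spred1 (34.3 ± 3.48), Dusp1 (31.0 ± 1.60), Spry2 (23.9 ± 0.680), Ier3 (22.2 ± 2.13), Dusp6 (11.5 ± 0.944), Spry4 (6.08 ± 0.252), Egr2 (3.74 ± 0.371) and Dusp4 (2.96 ± 0.368). Libraries of neighbours in that order overlapped for Spred1 and Dusp1, for Spry2 and Ier3 and for Egr2 and Dusp4. In knockout cells Dusp1 had the highest mean at 96.0 ± 8.41 FPKM, and its libraries lay above those of Ier2 (70.5 ± 7.90) but overlapped those of Ier3 and Egr1. Ier3 (69.0 ± 54.0), Egr1 (68.1 ± 21.5) and Spred1 (42.0 ± 6.39) followed, each overlapping the one before it. Below them were Spry2 (21.7 ± 4.16), Dusp6 (19.7 ± 1.98), Spry4 (7.66 ± 0.767), Dusp4 (7.32 ± 3.25) and Egr2 (2.98 ± 1.13), of which Spry2 overlapped Dusp6 and Spry4 overlapped Dusp4. Egr1 FPKM divided by Dusp1 FPKM gave 3.59, 4.68 and 4.12 for the WT libraries, against 0.869, 0.690 and 0.541 for knockout replicates 1 to 3. The FPKM ratio of Ier2 to Ier3 was 2.95 to 4.36 in WT libraries, 1.84 and 1.76 in knockout replicates 1 and 2 and 0.570 in replicate 3.

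**Figure D2:**
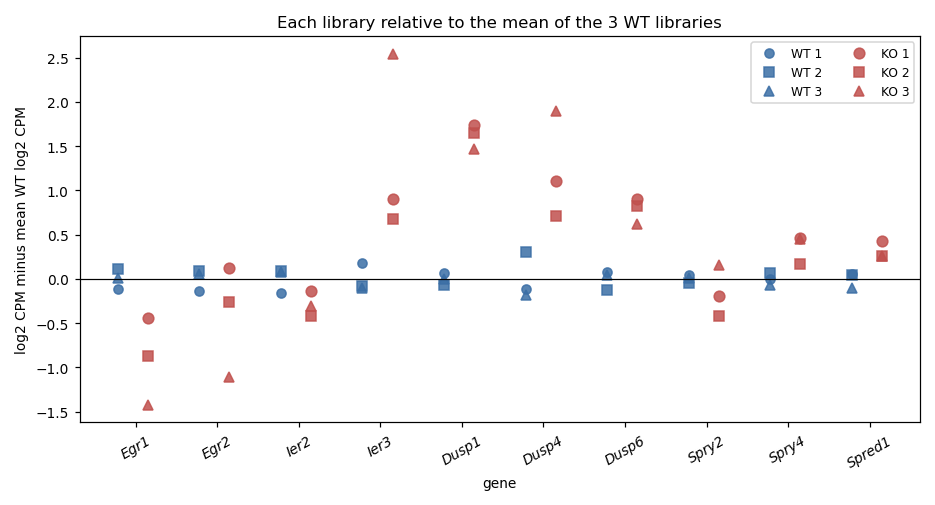
Log2 CPM of each gene in each library minus the mean log2 CPM of the 3 WT libraries (0 line). WT libraries (blue) lie between -0.18 and 0.30, while knockout libraries (red) reach -1.42 for Egr1 and 2.54 for Ier3, both in replicate 3 (triangle).

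The knockout libraries did not move as a block. WT libraries stayed within -0.18 to 0.30 of their mean log2 CPM for all 10 genes, both extremes being Dusp4. Between knockout libraries the range on the log2 scale was 1.87 for Ier3, 1.23 for Egr2, 1.19 for Dusp4 and 0.98 for Egr1, and 0.17 for Spred1. Knockout replicate 1 was the highest of its group for 7 of the 10 genes, replicate 2 the lowest for 5, and replicate 3 the lowest for the other 5 and the highest for 3 (Ier3, Dusp4 and Spry2). For Egr1, Egr2, Ier3 and Dusp4, replicate 3 was the knockout library farthest from WT. Dusp1, by contrast, lay 1.74, 1.65 and 1.47 above the WT mean in the 3 knockout libraries.

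**Figure D3:**
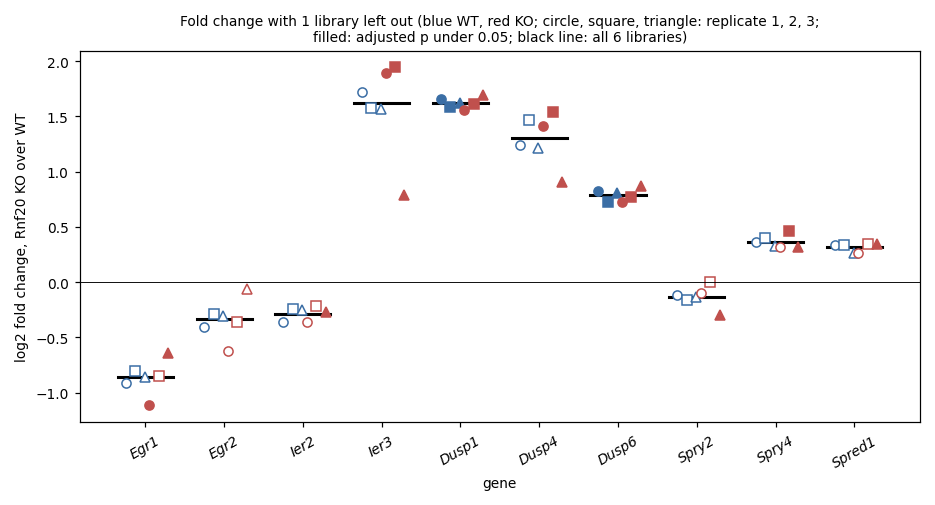
Log2 fold change of knockout over WT for each gene when 1 library is left out. Blue symbols leave out a WT and red symbols a knockout library, shapes give the replicate, filled symbols passed at an adjusted p under 0.05, and black lines are the values from all 6 libraries. Dusp1 and Dusp6 are filled throughout, and the red triangle of Ier3 falls to 0.79.

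With a WT library left out, 10.3% to 14.3% of all genes were called, with knockout replicate 1 or 2 left out 27.7% and 24%, and without knockout replicate 3 48.1%. Of the 10 genes, 2 were called higher without any 1 WT library (Dusp1 and Dusp6), 4 and 5 without knockout replicate 1 and 2, and 6 without replicate 3. Called lower were 0 without any 1 WT library or knockout replicate 2, 1 without knockout replicate 1, and 3 without knockout replicate 3 (Egr1, Ier2 and Spry2). Those counts of 0 come from edgeR's quasi-likelihood test, and 1 or 2 genes had an unadjusted p under 0.05 in each, with no other tool run on them.

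Close relatives of the 10 genes, 17 in all, were split. Of 15 with enough counts 4 rose and 3 fell, with a median log2 fold change of 0.32, against 0.34 for the 10 genes and -0.00032 for all genes tested, of which 16.4% rose and 16.6% fell. Among the other phosphatases, Dusp8, which acts on JNK and p38, rose by 1.04 (SE 0.113, adjusted p = 0.00327) and Dusp5, a nuclear ERK phosphatase, by 0.81 (SE 0.120, adjusted p = 0.00614). Dusp7, a cytoplasmic ERK phosphatase close to DUSP6, fell from 63.5, 63.1 and 67.7 CPM in WT to 44.1, 40.4 and 42.6 CPM in knockout libraries (log2 fold change -0.61, adjusted p = 0.00366). The cytoplasmic ERK phosphatases thus changed in both directions. Dusp10 (0.80, adjusted p = 0.0516), Dusp16 (0.32, 0.0751) and Dusp9 (-0.44, 0.153) did not pass, but Dusp10 passed at 0.51 (adjusted p = 0.0417) without knockout replicate 3.

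Nab2, a corepressor that binds EGR proteins and is itself an EGR target, fell beside Egr1, from 126, 124 and 136 CPM in WT to 106, 103 and 80.2 CPM in knockout libraries (log2 fold change -0.41, SE 0.118, adjusted p = 0.0372 from edgeR). Nab1 (0.27, adjusted p = 0.0965) and Egr3 (-0.43, adjusted p = 0.261) did not pass and were at 0.15 and -0.22 without knockout replicate 3 (adjusted p = 0.0517 and 0.402). Egr4 was at 0 to 0.621 CPM and not tested. Ier5 rose by 0.45 (adjusted p = 0.0121) and Ier5l fell by 0.56 on the log2 scale (adjusted p = 0.0103), so that this family, too, held members of both directions. Spry1 rose by 0.45 (adjusted p = 0.0229), whereas Spry3 (0.76, 0.0747), Spred3 (0.51, 0.106) and Spred2 (-0.05, 0.651) did not pass. Spred3 was at 53.9 CPM in knockout replicate 3 against 32.0 and 31.9 CPM in the other knockout libraries, and without it the value was 0.21, which passed (adjusted p = 0.0385). Dusp2 was at 0.0955 to 0.429 CPM and not tested. Without knockout replicate 3, 6 relatives were called higher and 3 lower, against 23.9% and 24.2% of all genes.

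**Figure D4:**
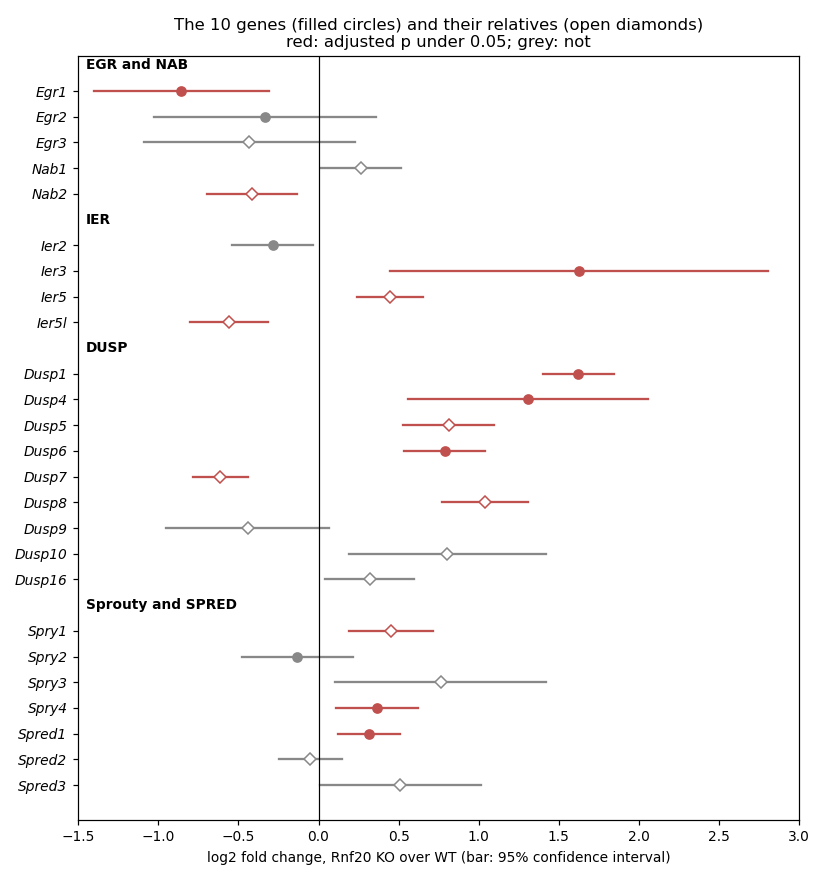
Log2 fold change of knockout over WT with its 95% confidence interval for the 10 genes (filled circles) and 15 relatives (open diamonds), by family. Red marks an adjusted p under 0.05 and grey the rest. The DUSP family holds 5 genes that rose, from 0.79 to 1.62, and 1 that fell, Dusp7 at -0.61.

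The wider set of 38 other immediate early genes contained 20 that rose and 2 that fell, with a median log2 fold change of 0.57, against 16.4% and 16.6% of all genes (23 and 6 without knockout replicate 3, when 23.9% of all genes were called higher and 24.2% lower). Atf3, a stress-induced transcription factor, rose from 5.09, 6.03 and 5.74 CPM in WT to 13.9, 14.8 and 16.8 CPM in knockout libraries (log2 fold change 1.43, adjusted p = 0.00251 from edgeR). Ctgf, a matrix-associated growth factor also induced by YAP, rose by 1.73 (adjusted p = 0.00287), and the zinc-finger factor Klf6 by 0.92 (adjusted p = 0.00315). The 2 that fell were Zfp36l1, which promotes decay of AU-rich mRNAs (-0.52, adjusted p = 0.00433), and the orphan receptor Nr4a2 (-0.71, adjusted p = 0.0160). The AP-1 genes are named here after their values were seen. Fos (-0.16, adjusted p = 0.663), Fosb (-0.35, 0.381) and Jun (0.08, 0.612) were not called, and Junb (0.68, 0.0354) and Fosl1 (1.5, 0.0137) rose, Junb by 0.44 without knockout replicate 3 (adjusted p = 0.00171). Fos was at 229.5, 164 and 107 CPM in knockout replicates 1 to 3 against 162, 208 and 188 CPM in WT libraries, with replicate 3 the lowest as for Egr1 and Egr2.

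Genes commonly used as a readout of ERK output, 19 in number, held 9 that rose and 2 that fell, with a median of 0.41, against 16.4% and 16.6% of all genes (10 and 4, against 23.9% and 24.2%, without knockout replicate 3). They share Dusp5, Spry1 and Spred2 with the relatives and Fosl1 with the immediate early list. Ccnd1, which encodes cyclin D1, rose from 433, 375 and 379 CPM in WT to 1093, 923 and 1019.6 CPM in knockout libraries (log2 fold change 1.36, adjusted p = 0.00178 from edgeR). The ephrin receptor gene Epha2 rose by 1.12 (adjusted p = 0.00178). The 2 that fell were the pro-apoptotic Bcl2l11 (-0.44, adjusted p = 0.0269), which ERK is known to repress, and Il17rd (-0.63, adjusted p = 0.0346), a feedback inhibitor of FGF signalling also called SEF.

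Upstream of ERK, 7 of 18 tested receptor and ligand genes rose and 2 fell, with a median of 0.35, against 16.4% and 16.6% of all genes. Without knockout replicate 3, 7 of 19 rose and 3 fell, against 23.9% and 24.2% of all genes. The EGF family ligands Ereg and Nrg1 rose by 2.54 and 1.80 (adjusted p = 0.00357 and 0.00144) and Pdgfa by 1.41 (adjusted p = 0.00400). Nrg1 was at 10.4, 9.92 and 10.2 CPM in WT and 37.3, 37.5 and 31.3 CPM in knockout libraries, with no overlap. The PDGF receptor gene Pdgfra, also a fibroblast marker, fell from 222, 181 and 192 CPM to 97.7, 108 and 49.9 CPM (log2 fold change -1.22, adjusted p = 0.0185), and Erbb2 fell by 0.50 (adjusted p = 0.0408).

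In the RAS to ERK cascade itself, 8 of 29 tested genes rose and 6 fell, with a median of 0.12, where 16.4% of all genes rose and 16.6% fell. Without knockout replicate 3 the counts were 12 and 7, against 23.9% and 24.2% of all genes. Lowest in adjusted p among those that rose were the scaffold Iqgap1 (0.63, adjusted p = 0.00358), the phosphatase Ptpn11, which promotes RAS activation (0.51, 0.00840), and Hras (0.72, 0.0154). Nras (-0.37, adjusted p = 0.0143), the ERK target kinase Rps6ka1 (-0.88, 0.0215) and the scaffold Ksr1 (-0.61, 0.0234) fell. Of the 4 reprogramming factors, whose viral and own transcripts could share reads, Klf4 fell by 0.43 (adjusted p = 0.0176), and Pou5f1, Sox2 and Myc were not called. Of all genes, 16.6% were called lower in that comparison. Without knockout replicate 3, all 4 factors were called lower, against 24.2% of all genes.

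**Figure D5:**
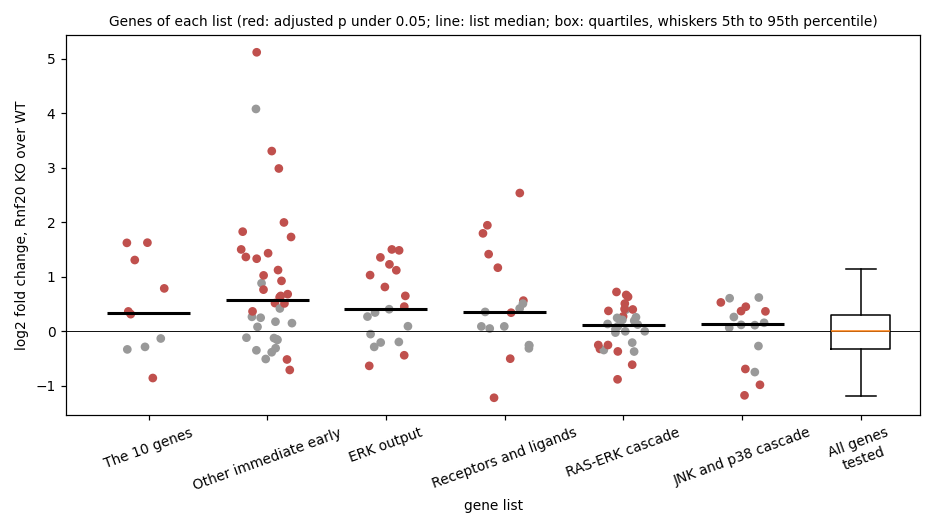
Log2 fold change of knockout over WT for each tested gene of 6 lists (points, red at an adjusted p under 0.05, grey otherwise) with the list median (black line), beside a box plot of all 13386 genes tested (line, median; box, quartiles; whiskers, 5th and 95th percentile). The medians run from 0.12 for the RAS to ERK cascade to 0.57 for other immediate early genes, against -0.00032 for all genes.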

How the data were processed

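The RNA-seq data comprised 3 WT and 3 Rnf20 knockout cultures, with genotype and replicate number from the labels and day 3 from the extract protocol. The submitters' processing notes name HISAT2 2.1.0, Cufflinks 2.1.1 and GRCm38/mm10. According to the methods, libraries were strand-specific and poly(A)-selected. The counting program and its strand setting are not given in the sources used here. The authors deposited raw counts per gene, whole numbers without normalization, for 16982 genes (425 of them predicted loci), with gene lengths in bases. FPKM values per library, from Cufflinks, were deposited by the authors for 12633 genes, whose counts equal those of the count table. The authors also deposited a log2 fold change and an adjusted p-value (FDR) per gene, which were not used.

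With R 4.3.3 and edgeR 4.0.16, counts were scaled by TMM and filtered with filterByExpr (min.count 10), which kept 13386 genes and all 10 genes described. The genotypes were compared by the quasi-likelihood test without covariates, with Benjamini-Hochberg adjustment over all genes tested. The size of the log2 fold change over the root of its F statistic served as SE. Log2 CPM of single libraries was taken without a pseudocount, except in the correlations between replicate numbers, which used 2 counts. On simulated counts, tested over 13384 genes, the test recovered 62.5% of 96 genes moved by a log2 fold change of 1 and 89.9% of 99 moved by 2, with 9 unchanged genes called. The simulation moved few genes and drew the replicates of a genotype alike. In the real data 33% of genes were called and knockout replicate 3 stood apart. These recovery rates therefore do not carry over directly to the real data. At 20545442 to 21746898 counts per library, 3 counts equal 0.142 to 0.143 CPM, which covers counting error only, since PCR duplicates cannot be told apart.

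The genes, lists and tests were chosen with earlier results of these data known. All 10 genes and their relatives are named, and from each other list the 3 genes with the lowest adjusted p in each direction among those that passed. Named outside this rule were Rnf20, the cell type markers, the reprogramming factors that were not called, and the AP-1 and cytokine genes. Positions and exons are from GENCODE M21, and promoter windows from RefSeq. Alternatives were other scalings (RLE, library size only), other filters, DESeq2 1.42.0, the exact test, limma 3.58.1 on log2(FPKM + 1) and log2(FPKM + 0.1), the replicate number as a block, a Y-linked term, other thresholds, and each library left out. The counts of the lists without knockout replicate 3 were added after seeing the data.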

Additional observations from a re-analysis of the deposited data

How the results depend on the processing

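The counts of 1 gene called lower and 6 called higher differed by no more than 1.5 times under RLE size factors, library size only, both other filters, DESeq2 and edgeR's exact test. Under those settings 12.2% to 20.1% of all genes were called lower and 11.9% to 19.5% higher. With a term for Y-linked transcripts, the genotype value rests on knockout replicate 2 alone against WT, so only log2 fold changes are given for it above. At an adjusted p under 0.01 edgeR's quasi-likelihood test called 0 lower and 2 higher (Dusp1 and Dusp6). The share of all genes at that threshold was not counted. With the study's thresholds 0 were called lower and 1 higher, against 2.08% and 1.5% of all genes. With limma, 3 were called higher on log2(FPKM + 1) and 3 on log2(FPKM + 0.1) (Dusp1, Dusp4 and Dusp6), with Egr1 lower in both. Of all genes, limma called 13.3% and 13.4% higher and 15.5% and 14.8% lower in these 2 fits. Leaving out each library gave 0 to 3 called lower and 2 to 6 called higher. Of 160 log2 fold changes recomputed for single genes, 120 stayed on the same side of the threshold, 38 lost a call, 2 gained one, and 0 changed sign. Dusp1 passed in all 16 alternatives, Dusp6 in 15, Egr1 and Dusp4 in 11, Ier3 in 9 and Spry4 and Spred1 in 6. These counts include the fit with the Y-linked term, which compares a single knockout library with WT. Scaled by library size only, all log2 fold changes shifted by -0.06 in the median, and 2684 genes were called lower and 1750 higher, against 2218 and 2195. The cause of these changes was not tested.

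Replicate numbers are shared between genotypes, and same-numbered libraries showed little common deviation (r = -0.0656, 0.0366 and 0.0109 for replicates 1, 2 and 3). Deviations were taken from the mean of each genotype's 3 libraries, and knockout replicate 3 stood apart. These correlations therefore cannot tell whether libraries of equal number were handled together. Not every library correlated best with its own number. With the number as a replicate block, edgeR called 1 gene lower (Egr1) and 2 higher (Dusp1 and Dusp6), with 6 higher at an unadjusted p under 0.05. With that block, calls were fewer among all genes too, at 11.1% lower and 10.3% higher.

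The intervals of Egr2 and Spry2 reach from a fall to a rise, and both values rest in part on knockout replicate 3, without which Egr2 was at -0.06 and Spry2 at -0.30 (adjusted p = 0.772 and 0.0124). The lowest count among the 10 genes was 101 (Egr2, knockout replicate 3), far above the 3 counts taken as a floor.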

Other observations

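The JNK and p38 branch of MAP kinase signalling is the one that DUSP1, DUSP4 and DUSP8 can switch off. Of its 16 genes tested, 4 rose and 3 fell in Rnf20 knockout cells, with a median log2 fold change of 0.14, against 16.4% and 16.6% of all genes (4 and 2, against 23.9% and 24.2%, without knockout replicate 3). Map2k4, a kinase that activates JNK, rose from 73.5, 75.1 and 73.1 CPM in WT to 104, 105 and 111 CPM in knockout libraries (log2 fold change 0.53, SE 0.0647, adjusted p = 0.00390 from edgeR). Mapkapk3, a p38 target kinase (0.45, adjusted p = 0.00771), and Map3k7, which encodes TAK1 (0.37, adjusted p = 0.0109), rose as well. Map2k6, a kinase that activates p38, fell from 23.0, 21.0 and 19.5 CPM to 12.9, 10.1 and 5.10 CPM (log2 fold change -1.17, adjusted p = 0.0286), as did Map3k1 (-0.69, adjusted p = 0.0111) and Mapk10, which encodes JNK3 (-0.98, adjusted p = 0.0432, and -0.83, adjusted p = 0.0557, without knockout replicate 3).

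The cytokine genes Ccl2, Il6 and Cxcl1 of the immediate early list, picked after their values were seen, had very uneven knockout libraries. Ccl2 was at 20.4, 23.0 and 21.5 CPM in WT and 49.97, 40.3 and 552 CPM in knockout replicates 1 to 3, and Il6 at 0.475, 0.190 and 0.237 and 1.48, 1.76 and 28.7 CPM, so that knockout replicate 3, which also held the most Ier3 and Dusp4 mRNA, was far above all other libraries. Ccl2 and Il6 passed (adjusted p = 0.0497 and 0.0358 from edgeR), whereas Cxcl1, at 5.80, 2.14 and 2.85 and 6.44, 4.27 and 172 CPM, overlapped between genotypes (adjusted p = 0.0767). The log2 fold changes of Ccl2 and Il6 were 3.31 and 5.12 over all libraries and 1.06 and 2.41 without knockout replicate 3 (adjusted p = 2.49e-05 and 0.00147).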
